A study of Homo sapiens with 20 samples.

Results

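The AP-1 genes examined here are FOS, FOSB, FOSL1, FOSL2, JUN, JUNB, JUND and ATF3, 8 of 58676 genes counted in cultured human pericytes. They were chosen by symbol: each had 1 row in the deposited count table, and all 8 rows were used. The cells were a single wild-type immortalized line (Celther), grown in DMEM with 10% fetal bovine serum and antibiotics, and every group received this medium. Pericytes are the mural cells that wrap small vessels. Over 4 hours the cells were given recombinant human eNAMPT (500 ng/mL) together with recombinant human PDGF-BB (20 ng/mL), PDGF-BB alone (20 ng/mL), eNAMPT alone (500 ng/mL), or neither factor (control). eNAMPT is NAMPT, an enzyme of NAD salvage, once it has left the cell. PDGF-BB is a growth factor whose receptor on pericytes is PDGFRB, and the study asked how eNAMPT acts on pericytes. Each of the 4 groups held 5 RNA sequencing libraries that the titles call biological replicates. No label says whether they came from separate passages or days, so p-values measure the spread between these libraries of 1 line.

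AP-1 is a dimer of basic leucine zipper (bZIP) proteins. JUN proteins pair with each other or with FOS proteins, while FOS proteins need a JUN partner to bind DNA. Growth factors and inflammatory signals are known to raise FOS and FOSB mRNA within minutes through MAP kinases and SRF with its TCF partners, and that mRNA is short-lived. FOSL1 and FOSL2 usually follow later, JUN is controlled further by the kinase JNK, JUND is known as the steadily expressed JUN gene, and ATF3 is a related bZIP factor known for its induction by stress.

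The promoters of 7 of the 8 genes were in the RefSeq table used here (build GRCh38.p14), all but FOSL1. Of these, 6 are shown because their genes differ in the results that follow. FOSB, JUN and JUNB passed a test with PDGF-BB, and FOS and ATF3 did not pass. JUND was the JUN gene nearest to control with PDGF-BB, alone or combined. Each run gives the 150 bases before the RefSeq start site, 5′ to 3′ on the gene's own strand, and capitals mark every match to the motifs named after the runs. For ATF3 the first of its start sites in the table is shown.
FOS, chr14:75278678-75278827, plus strand: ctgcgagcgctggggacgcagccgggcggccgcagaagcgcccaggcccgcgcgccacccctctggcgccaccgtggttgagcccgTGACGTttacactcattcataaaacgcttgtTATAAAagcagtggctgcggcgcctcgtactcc
FOSB, chr19:45467846-45467995, plus strand: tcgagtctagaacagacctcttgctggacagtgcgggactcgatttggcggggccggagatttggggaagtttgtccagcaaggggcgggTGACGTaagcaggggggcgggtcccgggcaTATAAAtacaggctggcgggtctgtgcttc
JUN, chr1:58784048-58784197, minus strand: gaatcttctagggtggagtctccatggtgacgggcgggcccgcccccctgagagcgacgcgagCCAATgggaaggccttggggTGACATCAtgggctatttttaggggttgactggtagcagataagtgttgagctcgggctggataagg
JUNB, chr19:12791336-12791485, plus strand: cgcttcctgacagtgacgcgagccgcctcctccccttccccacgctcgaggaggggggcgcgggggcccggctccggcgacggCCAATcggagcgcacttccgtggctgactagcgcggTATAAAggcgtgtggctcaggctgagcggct
JUND, chr19:18281623-18281772, minus strand: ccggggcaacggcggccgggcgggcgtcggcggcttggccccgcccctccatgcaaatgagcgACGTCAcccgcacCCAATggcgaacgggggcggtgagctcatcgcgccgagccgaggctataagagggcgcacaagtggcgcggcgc
ATF3, chr1:212565257-212565406, plus strand: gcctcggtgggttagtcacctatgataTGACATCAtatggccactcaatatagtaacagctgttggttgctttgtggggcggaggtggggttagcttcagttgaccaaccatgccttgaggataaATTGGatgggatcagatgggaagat
The 250 bases before each start were searched on both strands. The motifs were the cAMP response element TGACGTCA and its core TGACGT, the AP-1 sites TGACTCA and TGAGTCA, the variant TGACATCA, the TATA motif TATAAA, the motif CCAAT, the CArG box bound by SRF, and an NF-kB consensus. TGACGT lies within the full element, and TGACTCA and TGAGTCA are reverse complements. TGACATCA was added after the sequences had been read.

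The core TGACGT lay at -64 to -59 in FOS, at -60 to -55 in FOSB and at -66 to -61 in FOSL2, counted from the RefSeq start site. In the same window 7.1% of the 35116 promoters in the table hold it. JUND held the full element at -200 to -193, outside the run shown, and a further core at -87 to -82, and 1.65% of promoters hold the full element. The variant TGACATCA lay at -67 to -60 in JUN and at -123 to -116 in ATF3, against 2.37% of promoters. TATAAA stood at -33 to -28 in FOS, at -30 to -25 in FOSB and at -31 to -26 in JUNB, as well as at -230 to -225 of the other ATF3 start, and 10.7% of promoters hold it. CCAAT was found in JUN, JUNB, JUND and ATF3, against 32% of promoters. None of the 7 genes with an entry held TGACTCA or TGAGTCA (4.2% of promoters), a CArG box (1.16%) or the NF-kB consensus (9.96%) in this window. The serum response element known for FOS lies further upstream than the window. A match is a description of the letters and not evidence of binding.

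Library depth ran from 2894878 to 4011066 gene counts. Mitochondrial genes took 8.27% to 9.71% of gene counts, and spike-in counts came to 1.60% to 3.00% of them. Of 10 pericyte markers, 9 averaged at least 1 CPM (reads per gene scaled to a common library size) over the 20 libraries, among them PDGFRB at 130 CPM, CSPG4 at 63.0 CPM and RGS5 at 20.1 CPM, while DES stood at 0.561 CPM. All 7 fibroblast markers passed 1 CPM too, led by COL1A1 at 3299 CPM. Of 9 endothelial markers 3 did so, with CDH5 at 0.0977 CPM. Of 8 leukocyte markers 2 did so, CD14 and CD68, with PTPRC at 0.0729 CPM and with LYZ and TYROBP at 0 counts. Of 6 neural and glial markers 2 did so, MBP and SNAP25, with S100B at 0 counts. Of 7 epithelial markers 3 did so, led by KRT18 at 178 CPM, with EPCAM at 0.531 CPM and CDH1 at 0.0930 CPM.

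The 8 genes differed widely in level, which was set per kilobase of exon. The labels do not say whether reads cover whole transcripts, and these levels assume that they do. In control cells JUN stood highest at 112 CPM per kb ± 12.6 (SD, n = 5), followed by JUND at 55.0 ± 6.99 and FOSL1 at 32.1 ± 4.40. JUNB followed at 21.5 ± 2.81, FOSL2 at 11.0 ± 0.580 and ATF3 at 2.76 ± 0.910 CPM per kb. FOSB at 0.862 ± 0.341 and FOS at 0.745 ± 0.631 CPM per kb were the lowest. FOSB and FOS lay within 1 SD of each other, and all other neighbours in this order were further apart than their SDs. The order of the means was the same in all 4 groups. FOSL1 and JUNB had overlapping SDs in each treated group, with eNAMPT at 32.8 ± 5.53 and 31.8 ± 5.89 CPM per kb. With both factors JUND at 58.8 ± 10.3, FOSL1 at 47.6 ± 9.83 and JUNB at 41.6 ± 5.17 CPM per kb were neighbours with overlapping SDs.

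**Figure D1:**
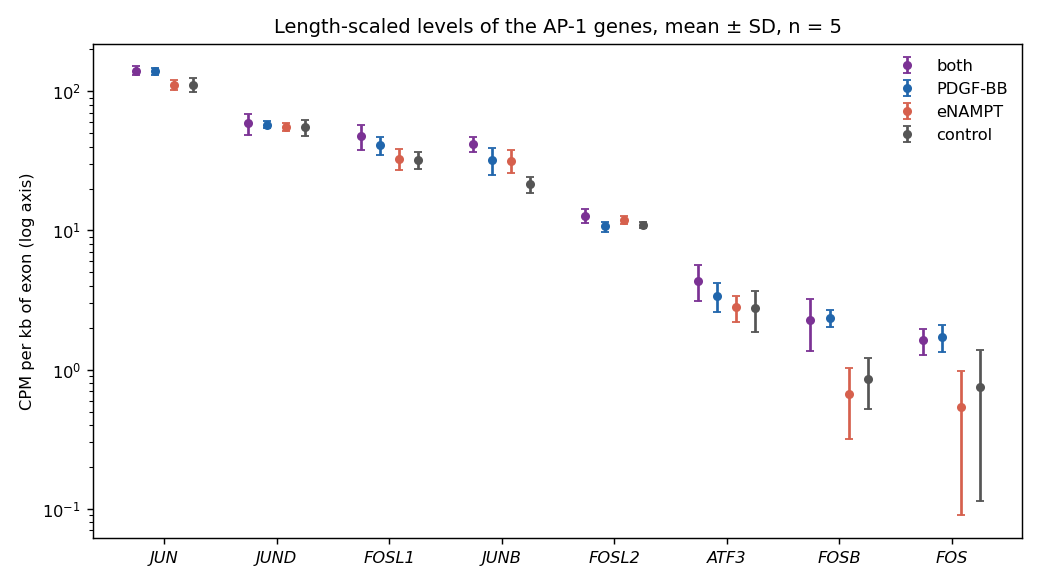
Level of each AP-1 gene in CPM per kilobase of exon (log axis), as mean ± SD over the 5 libraries of each group. JUN is highest, at 112 CPM per kb in control cells, and FOSB and FOS are lowest, at 0.862 and 0.745 CPM per kb in control cells.

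Per kilobase, most AP-1 mRNA in these cells was JUN, JUND and FOSL1, and little was FOS or FOSB. Without scaling by length, FOSL2 averaged 78.7 CPM in control, above FOSL1 at 60.7 CPM. The 3 JUN genes held 77.9% ± 2.93 of the summed CPM per kb of the 8 genes with both factors (SD, n = 5), 79.5% ± 1.70 with PDGF-BB, 80.4% ± 1.49 with eNAMPT and 79.8% ± 2.50 in control. The 4 FOS genes held 20.7% ± 2.62 with both factors, 19.4% ± 1.73 with PDGF-BB, 18.5% ± 1.39 with eNAMPT and 19.0% ± 2.55 in control. These shares lay within their SDs of each other. JUNB held 13.4% ± 1.10 with both factors, 11.0% ± 2.26 with PDGF-BB and 12.9% ± 2.65 with eNAMPT, against 9.12% ± 1.07 in control. JUND held 18.9% ± 2.70 with both factors, against 23.3% ± 2.84 in control. FOS and FOSB at their highest, with PDGF-BB, held 0.596% ± 0.135 and 0.813% ± 0.0926.

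All 8 genes passed the filter on low counts and were among the 12111 genes tested. FOS did so only through the groups with PDGF-BB: it reached the filter's 3.06 CPM in 5 of 5 libraries with both factors and 5 of 5 with PDGF-BB, against 1 of 5 with eNAMPT and 1 of 5 in control. FOSB reached it in 5 of 5 libraries with both factors, 5 of 5 with PDGF-BB, 3 of 5 with eNAMPT and 4 of 5 in control. The other 6 genes reached it in all 20 libraries. In these bulk samples, fewer cells expressing a gene and less mRNA per cell cannot be told apart.

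With both factors 4 of the 8 genes rose against control: FOSB, FOSL1, JUN and JUNB. With PDGF-BB alone FOSB, JUN and JUNB rose, which is 3 of 8. With eNAMPT alone 0 of 8 passed. No gene of the family fell in any comparison. Passing means an adjusted p under 0.05 in edgeR's quasi-likelihood test, adjusted by the Benjamini-Hochberg method over all genes tested.

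Across all 12111 genes, 1.63% rose with both factors, 1.05% with PDGF-BB and 0.0743% with eNAMPT, each against control. Counting falls as well, 1.98% of genes passed with both factors and 1.21% with PDGF-BB. The median log2 fold change of the 8 genes was 0.61 with both factors, 0.33 with PDGF-BB and 0.02 with eNAMPT, against -0.01, -0.01 and -0.00 over all genes in the same order. These 3 comparisons share the control libraries, and the medians include FOS, which passed the filter only through the groups with PDGF-BB. Against eNAMPT alone, cells with both factors had higher FOSB, FOSL1 and JUN, 3 of 8, where 1.18% of all genes were higher and 1.53% passed in either direction. Against PDGF-BB alone, cells with both factors showed 0 of 8 past the threshold with edgeR, DESeq2 and limma-voom alike, where 0.0578% of all genes were higher by edgeR. At an unadjusted p under 0.05 there were 2 of 8, beside 412 of 12111 genes.

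**Figure D2:**
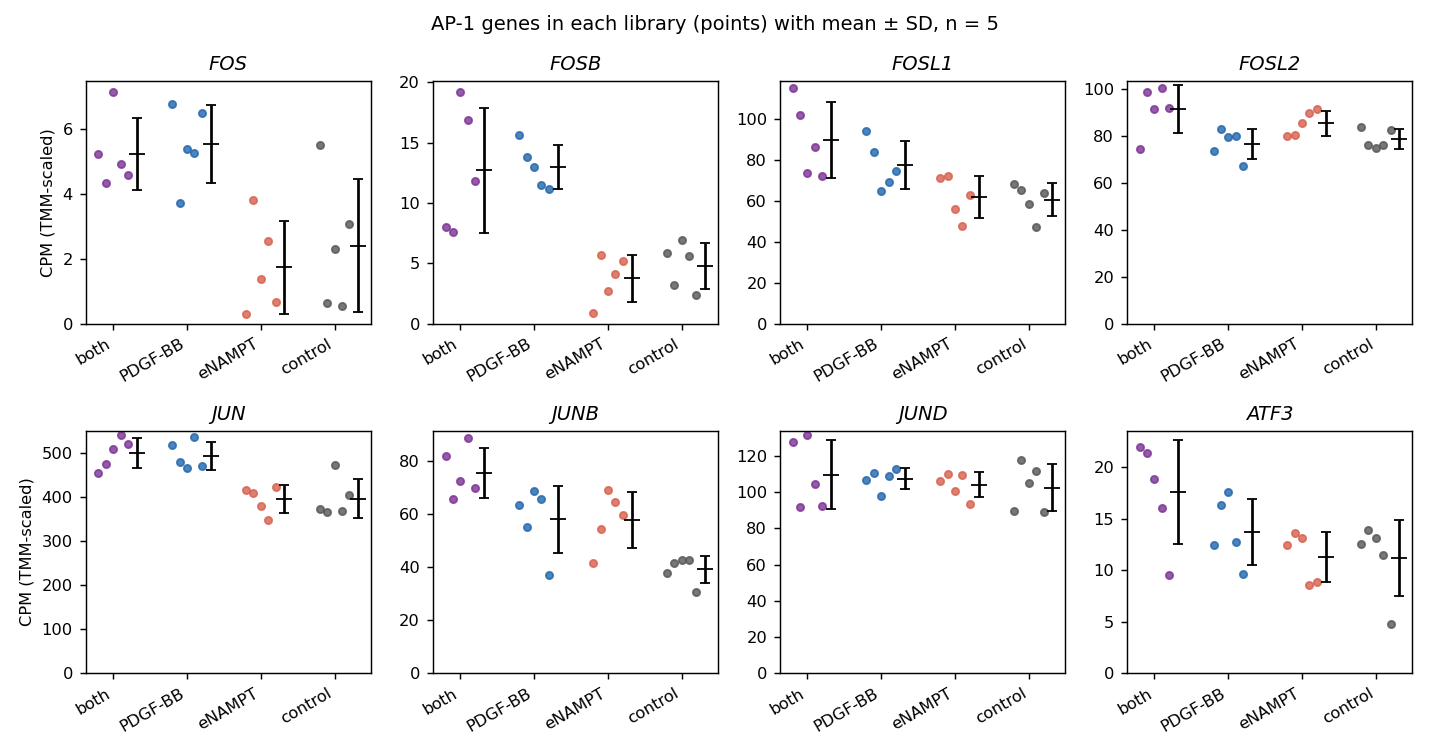
CPM of each AP-1 gene in every library (points), with mean ± SD over 5 libraries beside them, for both factors, PDGF-BB, eNAMPT and control. FOSB averages 12.7 and 13.0 CPM in the 2 groups with PDGF-BB, against 3.74 CPM with eNAMPT and 4.79 CPM in control, and JUNB is lowest in control at 39.1 CPM.

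FOSB, whose protein is a transactivating FOS partner of JUN, had the largest fold change among the AP-1 genes that rose with PDGF-BB, alone or combined. The gene (ENSG00000125740) lies at chr19:45467995-45475179 on the plus strand of GRCh38. Its level was 8.03, 7.58, 19.2, 16.8 and 11.8 CPM with both factors (replicates 1 to 5) and 15.6, 13.8, 13.0, 11.5 and 11.2 CPM with PDGF-BB. It was 0.887, 5.71, 2.73, 4.14 and 5.22 CPM with eNAMPT, and 5.81, 3.23, 6.89, 5.61 and 2.39 CPM in control. Every library with PDGF-BB, alone or combined, was above every control and every eNAMPT library. Among all genes, such separation upward from control was found for 1.75% with both factors and 1.52% with PDGF-BB. Upward from eNAMPT it was found for 1.75% with both factors. Against control the change on the log2 scale was 1.39 (SE 0.32, adjusted p = 0.00804, edgeR) with both factors and 1.43 (SE 0.32, adjusted p = 0.00796, edgeR) with PDGF-BB. With both factors against eNAMPT it was 1.77 (SE 0.33, adjusted p = 0.000695, edgeR). With eNAMPT alone FOSB was at -0.38 (SE 0.36) against control, which did not pass. The rise with both factors missed the threshold without replicate 3 of that group (1.20, edgeR adjusted p = 0.0563) and with spike-in scaling (1.24, edgeR adjusted p = 0.0636).

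FOS, the prototype immediate early gene, had higher means with PDGF-BB, at few counts. It (ENSG00000170345) lies at chr14:75278774-75282230 on the plus strand. Only 15, 16, 22, 19 and 14 reads were counted with both factors and 23, 13, 20, 17 and 21 with PDGF-BB. There were 1, 12, 5, 8 and 2 with eNAMPT and 18, 2, 7, 2 and 9 in control. As CPM, FOS averaged 5.25 ± 1.12 with both factors, 5.54 ± 1.21 with PDGF-BB, 1.73 ± 1.44 with eNAMPT and 2.41 ± 2.04 in control (SD, n = 5 each). Control replicate 1, at 5.51 CPM, lay among the treated libraries, so both PDGF-BB groups overlapped control. Relative to control, its log2 difference was 1.12 (SE 0.47, adjusted p = 0.316, edgeR) with both factors and 1.20 (SE 0.46, adjusted p = 0.307, edgeR) with PDGF-BB, neither past the threshold, and -0.47 (SE 0.53) with eNAMPT. Every library with both factors was above every eNAMPT library, a separation that 1.75% of all genes showed. That difference was 1.59 (SE 0.49, adjusted p = 0.0956, edgeR). It passed with DESeq2 (1.61, adjusted p = 0.0422) and without eNAMPT replicate 2 (2.08, edgeR adjusted p = 0.0342), but not without the filter on low counts (edgeR adjusted p = 0.0714). FOS entered these tests through the groups with PDGF-BB alone, so none of these values supports a rise.

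FOSL1, which encodes FRA1, a FOS protein without the transactivation domain of FOS, rose with both factors against control and against eNAMPT, while PDGF-BB alone and the addition of eNAMPT to PDGF-BB did not pass. The gene (ENSG00000175592) lies at chr11:65892049-65900573 on the minus strand. Its level was 115, 102, 73.5, 86.2 and 72.3 CPM with both factors and 94.2, 83.9, 65.1, 69.2 and 74.4 CPM with PDGF-BB. It was 71.0, 72.3, 55.9, 47.5 and 62.7 CPM with eNAMPT, and 68.2, 65.6, 58.4, 47.3 and 63.8 CPM in control. All 5 libraries with both factors and 4 of 5 with PDGF-BB were above the highest control library. Full upward separation from control with both factors was found for 1.75% of all genes. The log2 fold change of FOSL1 against control was 0.57 (SE 0.13, adjusted p = 0.00599, edgeR) with both factors and 0.35 (SE 0.13, adjusted p = 0.246, edgeR) with PDGF-BB. Between these treatments, both factors minus PDGF-BB, it was 0.22 (SE 0.12, adjusted p = 1.00, edgeR). Against eNAMPT, both factors gave 0.54 (SE 0.13, adjusted p = 0.0121, edgeR). That call was lost without replicate 1 of both factors (0.44, edgeR adjusted p = 0.0822), without eNAMPT replicate 3 (0.50, edgeR adjusted p = 0.0544) and without eNAMPT replicate 4 (0.46, edgeR adjusted p = 0.0753). With spike-in scaling the rises with both factors were 0.46 against control (edgeR adjusted p = 0.631) and 0.40 against eNAMPT (edgeR adjusted p = 0.800). With a term for replicate number, FOSL1 passed with PDGF-BB against control (0.35, edgeR adjusted p = 0.0187). No label says that these numbers pair the libraries.

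FOSL2, which encodes the related FRA2, passed in none of the 6 comparisons. The gene (ENSG00000075426) lies at chr2:28392448-28417312 on the plus strand. It averaged 91.4 CPM ± 10.3 with both factors, 76.6 ± 6.36 with PDGF-BB, 85.4 ± 5.33 with eNAMPT and 78.7 ± 4.15 in control (SD, n = 5 each). With both factors 4 of 5 libraries were above the highest PDGF-BB library, and replicate 1 at 74.4 CPM was not. The log2 fold change of both factors over PDGF-BB was 0.26 (SE 0.09, unadjusted p = 0.00803, adjusted p = 1.00, edgeR). Against control it was 0.22 (SE 0.09) with both factors, -0.04 (SE 0.09) with PDGF-BB and 0.12 (SE 0.09) with eNAMPT.

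JUN, the most abundant of the 8 genes per kilobase, rose by a small and similar amount with either PDGF-BB treatment. The gene (ENSG00000177606) lies at chr1:58780788-58784327 on the minus strand. Its level was 454, 473, 507, 540 and 520 CPM with both factors and 517, 479, 464, 535 and 468 CPM with PDGF-BB. It was 415, 409, 379, 347 and 423 CPM with eNAMPT, and 372, 366, 471, 366 and 404 CPM in control. Control replicate 3, at 471 CPM, was the control library that reached the PDGF-BB range, and 4 of 5 libraries with both factors and 3 of 5 with PDGF-BB were above it. Against control the change on the log2 scale was 0.33 (SE 0.07, adjusted p = 0.00529, edgeR) with both factors and 0.32 (SE 0.07, adjusted p = 0.0145, edgeR) with PDGF-BB. Against eNAMPT, both factors gave 0.34 (SE 0.07, adjusted p = 0.00514, edgeR), with no overlap of the libraries. Such upward separation was found for 1.75% of all genes. With eNAMPT alone the fold change against control was -0.00 (SE 0.07).

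The JUN call with PDGF-BB was near the threshold. It missed it without control replicate 1 (0.29, edgeR adjusted p = 0.0531), 2 (0.29, edgeR adjusted p = 0.0618) or 4 (0.29, edgeR adjusted p = 0.0643), and without PDGF-BB replicate 1 (0.30, edgeR adjusted p = 0.0528) or 4 (0.28, edgeR adjusted p = 0.0619). The call with both factors held in 10 of 10 such fits, with adjusted p between 0.000517 and 0.0256 (edgeR). With spike-in scaling JUN passed in no comparison: the change was 0.22 (edgeR adjusted p = 0.905) with both factors against control, 0.36 (edgeR adjusted p = 0.999) with PDGF-BB against control and 0.20 (edgeR adjusted p = 0.874) with both factors against eNAMPT. That scaling shifted the median of all genes by -0.14 in the comparisons of both factors with control and with eNAMPT.

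JUNB, which encodes a JUN protein that can restrain JUN at some targets and activate others, had its highest mean where both factors were combined and was the only gene of the 8 with an unadjusted p under 0.05 for eNAMPT alone. The gene (ENSG00000171223) lies at chr19:12791496-12793315 on the plus strand. Its level was 82.0, 65.5, 72.5, 88.5 and 69.7 CPM with both factors and 63.5, 55.1, 68.8, 65.5 and 37.2 CPM with PDGF-BB. It was 41.4, 54.2, 69.2, 64.4 and 59.7 CPM with eNAMPT, and 37.9, 41.7, 42.7, 42.7 and 30.7 CPM in control. All libraries with both factors were above all controls, as were 4 of 5 with PDGF-BB (not replicate 5) and 4 of 5 with eNAMPT (not replicate 1). Across all genes, 1.75% showed full upward separation from control with both factors. Relative to control, the log2 difference of JUNB was 0.95 (SE 0.14, adjusted p = 6.74e-06, edgeR) with both factors and 0.57 (SE 0.14, adjusted p = 0.0231, edgeR) with PDGF-BB. With eNAMPT it was 0.56 (SE 0.14, unadjusted p = 0.00025, adjusted p = 0.189, edgeR), a similar size that did not pass.

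The eNAMPT change of JUNB depended on how it was computed. It passed without eNAMPT replicate 1 (0.66, edgeR adjusted p = 0.0263) and without the filter on low counts (0.56, edgeR adjusted p = 0.00638). With a term for replicate number it passed as well (0.56, edgeR adjusted p = 0.00221), though no label says that these numbers pair the libraries. DESeq2 and limma-voom called 0 of the 8 genes with eNAMPT, as edgeR did, and 1 of 8, JUNB, had an unadjusted p under 0.05 in edgeR, as did 437 of 12111 genes. The addition of eNAMPT to PDGF-BB gave JUNB 0.38 (SE 0.13, unadjusted p = 0.00621, adjusted p = 1.00, edgeR), which did not pass. This comparison shares no library with that of eNAMPT and control. Both come from the same fit with a common estimate of the spread, so they are not independent. The addition of PDGF-BB to eNAMPT gave 0.39 (SE 0.13, adjusted p = 0.164, edgeR).

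The JUNB call with PDGF-BB alone ended without control replicate 1 (0.56, edgeR adjusted p = 0.0576) or 5 (0.49, edgeR adjusted p = 0.0894), and without PDGF-BB replicate 1 (0.53, edgeR adjusted p = 0.0731), 3 (0.50, edgeR adjusted p = 0.113) or 4 (0.52, edgeR adjusted p = 0.0818). It also missed the threshold with limma-voom (0.54, adjusted p = 0.0664) and with spike-in scaling (0.61, edgeR adjusted p = 0.367). With both factors JUNB passed in 10 of 10 fits that left out 1 library, with adjusted p between 6.81e-06 and 6.46e-05 (edgeR), and with spike-in scaling (0.82, edgeR adjusted p = 0.0173). JUNB shares 259 exon bases with HOOK2 on the opposite strand, and no label says whether counting used strand. HOOK2 had 402 counts over the 20 libraries and JUNB 3830.

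JUND, next to JUN in level per kilobase, passed in none of the 6 comparisons. The gene (ENSG00000130522) lies at chr19:18279760-18281622 on the minus strand. It averaged 110 CPM ± 19.1 with both factors, 107 ± 5.84 with PDGF-BB, 104 ± 6.94 with eNAMPT and 102 ± 13.0 in control (SD, n = 5 each), and its libraries overlapped in every comparison. The log2 fold change against control was 0.09 (SE 0.10) with both factors, 0.07 (SE 0.10) with PDGF-BB and 0.02 (SE 0.10) with eNAMPT. A p that misses the threshold does not show that the level was unchanged. With spike-in scaling the change with both factors was -0.06, against a median of all genes of -0.14.

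ATF3, the stress-induced member, had a higher mean with both factors but a wide spread. The gene (ENSG00000162772) lies at chr1:212565334-212620777 on the plus strand. Its level was 22.0, 21.4, 18.9, 16.1 and 9.53 CPM with both factors and 12.4, 16.4, 17.5, 12.7 and 9.62 CPM with PDGF-BB. It was 12.4, 13.6, 13.1, 8.61 and 8.81 CPM with eNAMPT, and 12.5, 13.9, 13.1, 11.5 and 4.78 CPM in control. With both factors 4 of 5 libraries were above every control library, and replicate 5 was the lowest library with both factors, with PDGF-BB and in control, and the second lowest with eNAMPT. Against control the change on the log2 scale was 0.65 (SE 0.24, adjusted p = 0.215, edgeR) with both factors, 0.30 (SE 0.24, adjusted p = 0.779, edgeR) with PDGF-BB and 0.02 (SE 0.25, adjusted p = 1.00, edgeR) with eNAMPT. Without control replicate 5, and with the other replicate 5 libraries kept, these values were 0.46, 0.11 and -0.17.

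The interaction asked whether the effect of eNAMPT with PDGF-BB present differed from its effect without it. None of the 8 genes passed, and 0 of them reached an unadjusted p under 0.05. Over all 12111 genes 0 passed with edgeR, DESeq2 or limma-voom, which is 0% of them, and 406 had an unadjusted p under 0.05 in edgeR. The interaction was -0.18 (SE 0.19) for JUNB, 0.18 (SE 0.18) for FOSL1, 0.02 (SE 0.10) for JUN and 0.33 (SE 0.34) for ATF3 on the log2 scale, and with spike-in scaling, where the median over all genes was -0.16, it turned to -0.015 for FOSL1 and -0.15 for JUN. FOSB at 0.35 (SE 0.46) and FOS at 0.39 (SE 0.68) had the widest errors. All 8 adjusted p-values were 0.999 (edgeR).

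**Figure D3:**
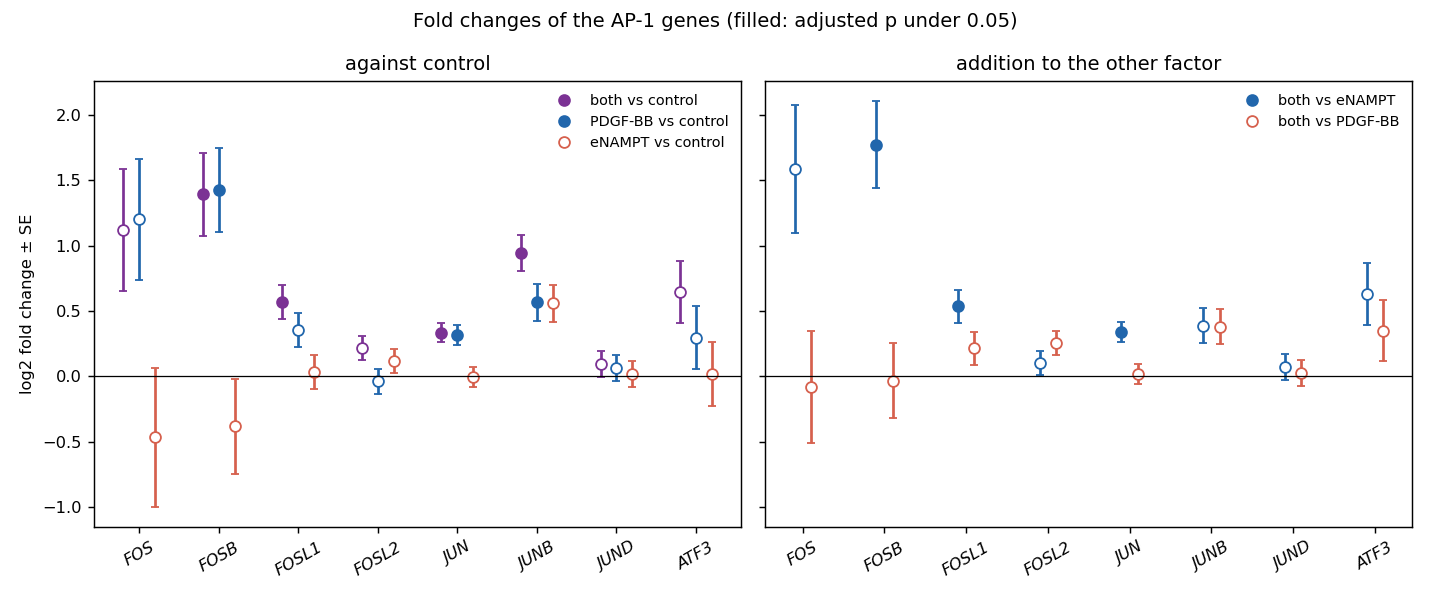
Log2 fold change ± SE of each AP-1 gene, against control (left) and for the addition of 1 factor to the other (right), with filled points at an adjusted p under 0.05 (edgeR). JUNB is at 0.95 with both factors, 0.57 with PDGF-BB and 0.56 with eNAMPT, and no gene is filled for eNAMPT alone or for both factors over PDGF-BB.

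The authors' deposited table has the same AP-1 genes past 0.05 against control, with its fold changes as control over treated, so that a negative value means higher in treated cells. For both factors the authors' deposited table has JUNB at -0.69 (adjusted p = 2.32e-07), FOSB at -0.49 (adjusted p = 0.00474), FOSL1 at -0.43 (adjusted p = 0.00676) and JUN at -0.31 (adjusted p = 0.000646). For PDGF-BB the authors' deposited table has FOSB at -0.50 (adjusted p = 0.00336), JUN at -0.29 (adjusted p = 0.00244) and JUNB at -0.40 (adjusted p = 0.0251), with FOSL1 at an adjusted p of 0.296 and no adjusted p for FOS. For eNAMPT the authors' deposited table has JUNB at -0.40 (adjusted p = 0.253). Its fold changes of these genes are smaller in size than those computed here, with the widest gaps for FOSB and FOS.

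Genes upstream and downstream of AP-1 were read from 4 further lists, some of whose genes appear in more than 1 list. None of the 27 tested genes of the upstream pathway (MAP kinases and their kinases, SRF, the TCF factors, coactivators) passed in any of the 6 comparisons by edgeR. Against control, 1.98% of all genes passed with both factors, 1.21% with PDGF-BB and 0.0743% with eNAMPT. At such shares a list of this size may hold no passing gene, so the absence does not set it apart. These are mRNA levels, and the activity of the kinases and of SRF was not measured. SRF itself, which binds the CArG box, averaged 101 CPM ± 18.1 with both factors, 95.2 ± 14.4 with PDGF-BB, 80.9 ± 10.7 with eNAMPT and 80.3 ± 9.44 in control (SD, n = 5 each), a log2 fold change of 0.32 (adjusted p = 0.190, edgeR) with both factors. RPS6KA3, which encodes the kinase RSK2, was at 0.35 (adjusted p = 0.268, edgeR) with both factors and 0.40 (adjusted p = 0.192, edgeR) with PDGF-BB. The coactivator genes EP300 and CREBBP were at -0.22 and -0.23 with both factors, and MAP2K7, a kinase upstream of JNK, was at -0.23 with PDGF-BB, none past the threshold. The median of the list was -0.06 with both factors and -0.02 with PDGF-BB.

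Among 27 other bZIP genes tested, 2 rose with both factors, MAFF and CEBPB, and 1 rose with PDGF-BB, MAFF. Over all genes tested 1.63% rose with both factors and 1.05% with PDGF-BB, so counts this small are not read as a result about the list. The list's median log2 fold change was 0.09 with both factors and 0.04 with PDGF-BB. MAFF, a small MAF protein that lacks a transactivation domain, averaged 94.5 CPM ± 15.2 with both factors, 88.6 ± 9.63 with PDGF-BB, 51.7 ± 6.95 with eNAMPT and 53.0 ± 11.8 in control (SD, n = 5 each). Its log2 fold change was 0.83 (adjusted p = 1.26e-05, edgeR) with both factors and 0.74 (adjusted p = 0.000164, edgeR) with PDGF-BB. CEBPB rose with both factors by 0.40 (adjusted p = 0.0294, edgeR) and was at 0.36 (adjusted p = 0.0882, edgeR) with PDGF-BB. The stress factor genes ATF4 at 0.17 with PDGF-BB and NFE2L2 at 0.29 with both factors did not pass.

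Other immediate early genes rose in part. Of 22 tested, 11 rose with both factors, 6 with PDGF-BB and 1 with eNAMPT, and none fell. Over all genes tested, 1.63%, 1.05% and 0.0743% rose in the same order. The list's median log2 fold change was 0.49 with both factors, 0.39 with PDGF-BB and -0.01 with eNAMPT. EGR1, a zinc finger factor also induced through SRF, averaged 249.9 CPM ± 27.1 with both factors, 207 ± 30.2 with PDGF-BB, 91.8 ± 13.1 with eNAMPT and 67.0 ± 5.82 in control (SD, n = 5 each), a rise of 1.90 with both factors and 1.63 with PDGF-BB. IER3, also known as an NF-kB target, rose in all 3 treatments by 1.37 with both factors, 0.72 with PDGF-BB and 0.60 (adjusted p = 0.000181, edgeR) with eNAMPT, and the addition of eNAMPT to PDGF-BB raised it by 0.65 (adjusted p = 3.88e-05, edgeR). IER2 rose by 0.75 with both factors and 0.58 with PDGF-BB. DUSP1, a phosphatase that switches off MAP kinases, rose by 0.94 with both factors (adjusted p = 8.94e-05, edgeR), and RHOB rose by 0.68 with PDGF-BB (adjusted p = 0.00449, edgeR).

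Genes known from textbooks as AP-1 targets rose in part. Of 22 tested, 8 rose with both factors, 6 with PDGF-BB and 1 with eNAMPT, and none fell, with medians of 0.41, 0.33 and -0.01. The shares of all genes tested that rose were 1.63%, 1.05% and 0.0743%. CXCL8, a chemokine gene with AP-1 and NF-kB sites, averaged 385 CPM ± 46.4 with both factors, 169 ± 31.6 with PDGF-BB, 139 ± 32.6 with eNAMPT and 42.5 ± 10.7 in control (SD, n = 5 each). Its log2 fold change was 3.19 with both factors, 2.00 with PDGF-BB and 1.72 (adjusted p = 2.37e-11, edgeR) with eNAMPT, and 1.19 for both factors over PDGF-BB (adjusted p = 2.24e-08, edgeR). The cytokine gene IL6 averaged 8.22 CPM ± 2.96 with both factors, 3.27 ± 0.816 with PDGF-BB, 2.99 ± 1.11 with eNAMPT and 1.30 ± 0.663 in control. Its log2 difference with both factors was 2.62 (adjusted p = 5.30e-05, edgeR), and it is counted among the 8. As the filter stood at 3.06 CPM, IL6 may have entered the tests through the group where it is highest. Its call is therefore not taken as support for a rise. HBEGF, an EGF receptor ligand, rose by 1.25 with both factors and 1.01 with PDGF-BB, and PLAUR, the urokinase receptor, by 0.60 in each. The cyclin gene CCND1 rose by 0.41 with PDGF-BB (adjusted p = 0.00734, edgeR). CXCL8 and IER3 thus passed with eNAMPT alone while no AP-1 gene did, and whether their responses differ from those of the AP-1 genes was not tested.

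**Figure D4:**
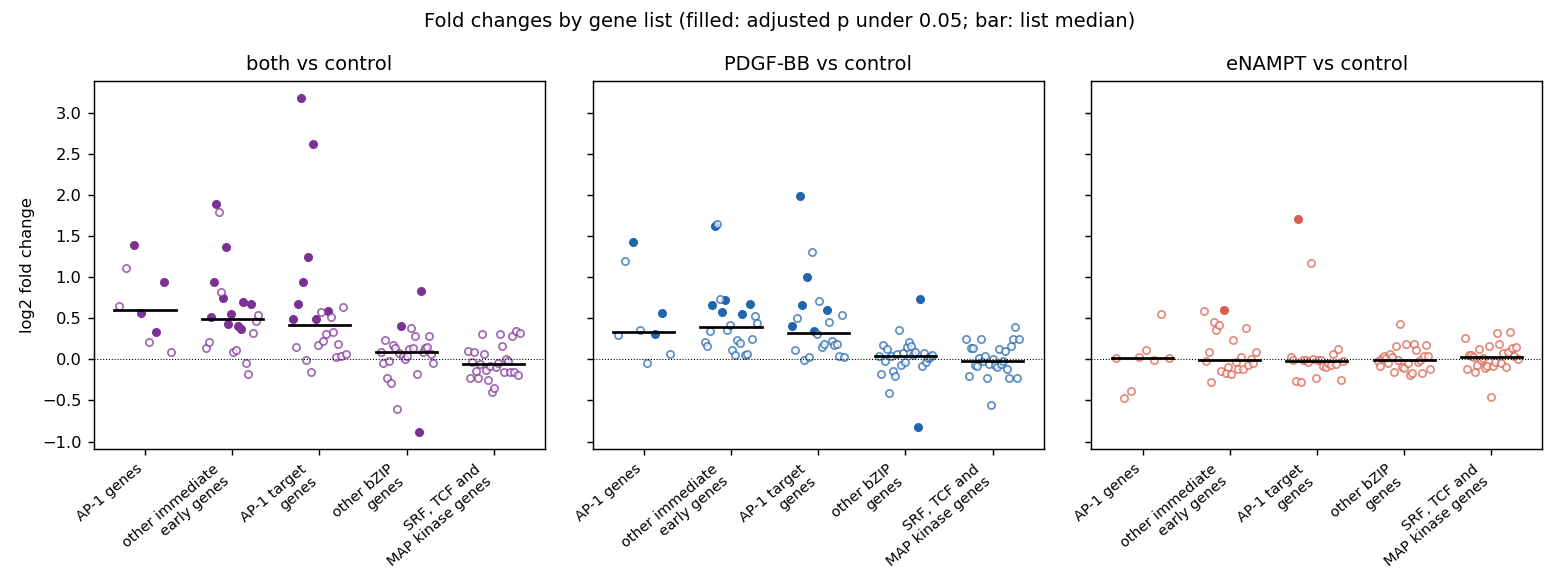
Log2 fold change of every tested gene in the AP-1 family and 4 related lists (points, filled at an adjusted p under 0.05, edgeR; bars are list medians) with both factors, PDGF-BB and eNAMPT, each against control. The AP-1 median is 0.61, 0.33 and 0.02 in the 3 panels, and the upstream pathway has no filled point.

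The summed level of the 7 epithelial markers, nearly all of it KRT18, was above every control library with both factors and overlapped control with PDGF-BB. It ran from 199.9 to 256 CPM with both factors and from 175 to 237 CPM with PDGF-BB, against 136 to 182 CPM with eNAMPT and 155 to 198 CPM in control. Of its 2 tested genes 1 rose with both factors and 0 with PDGF-BB by edgeR, and EPCAM and CDH1 stayed near 0. The 10 pericyte markers summed to between 363 and 444 CPM with both factors, 359 and 409 with PDGF-BB, 321 and 390 with eNAMPT, and 341 and 401 in control. The part of either list in the AP-1 results was not tested.

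For each AP-1 gene that passed somewhere, the genes with the most similar profile were found as the smallest mean absolute difference in centred log2 CPM over the 20 libraries, among 9047 or 9048 genes of at least 10 CPM. For FOSB these were IL11 (0.39), DUSP1 (0.42) and CD274 (0.46), where the median gene differed by 0.79. For FOSL1 they were TIMP3 (0.13), ATP2B1 (0.14) and ZFP36L1 (0.14), against a median of 0.30. JUN was nearest to MCL1 (0.08), PTPN12 (0.09) and PNP (0.09), against 0.23. JUNB was nearest to VPS26C (0.19), PPIF (0.20) and PLK3 (0.21), against 0.38. The distances include counting error.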

How the data were processed

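RNA was extracted with the SPLIT kit (Lexogen), and libraries followed standard Illumina protocols, per the labels' protocols. Library type and strand are not given in the sources used here. The submitters' processing notes name FastQC 0.11.7, STAR 2.6.1a, featureCounts 1.6.4, DESeq2 1.18.1 and GRCh38. The deposited table used here holds raw counts per gene and library and, for each pair of groups, the authors' log2 fold changes and adjusted p-values. A further deposited count table served as an alternative: it holds the same or more counts, and what separates them is not stated. All sample columns were used. Gene positions and exon lengths are those of GENCODE 29 on GRCh38, and the 8 starts equal those in the file.

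No spike-in row (99 of them) entered the tests. With edgeR 4.0.16 (R 4.3.3), filterByExpr kept 12111 genes and TMM scaled the libraries. All 20 libraries entered 1 quasi-likelihood fit with a mean per group, tested with two-sided glmQLFTest, giving 5 pairwise comparisons and the interaction. P-values were adjusted by Benjamini-Hochberg over all genes within each of the 6 comparisons. The SE is the size of the log2 fold change divided by the square root of F. CPM is relative to gene counts after TMM.

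Named genes were the 8 AP-1 genes, up to 4 genes of each list with the smallest p in the PDGF-BB and combined comparisons with control, those that passed with eNAMPT, and 3 nearest profiles per passing AP-1 gene. One result among the other bZIP genes is not reported here. The genes and lists were chosen with earlier results of these data known. Alternatives were DESeq2 1.42.0, voom in limma 3.58.1, RLE size factors, spike-in scaling, other filters, a term for replicate number, fits of the compared groups alone, a threshold of 0.01, the other count table and leaving out each library. The model was tested on counts simulated for all 20 libraries from their mean levels and spread (11931 genes). Changes were put into both groups with PDGF-BB and read from PDGF-BB against control. The model recovered 42.9% of 49 genes changed by an absolute log2 fold of 0.5 and 80.9% of 47 at 1. It recovered 93.9% of 49 at 1.5 and 98.0% of 49 at 2, with 8 false calls.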

Additional observations from a re-analysis of the deposited data

Results flagged for a closer look

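ATF3 in control replicate 5 stood at 4.78 CPM, far from the other 4 control libraries, of which the nearest was at 11.5 CPM and the highest at 13.9 CPM. The gap divided by the group's range was 0.736, above the critical value of 0.71 for 5 samples. Of 32 sets checked (8 genes in 4 groups) this was the only one so far out, and chance alone sets apart about 1 in 20. Replicate 5 was also low for ATF3 in the treated groups, at 9.53 CPM with both factors, 9.62 with PDGF-BB and 8.81 with eNAMPT. Without control replicate 5, but with those treated libraries kept, the log2 fold change of ATF3 against control was 0.46 with both factors (adjusted p = 0.457, edgeR). It was 0.11 with PDGF-BB and -0.17 with eNAMPT. Leaving out only the control library lowers these values.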

How the results depend on the processing

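Spike-in scaling left 1 AP-1 gene past the threshold with both factors against control (JUNB), 1 with PDGF-BB (FOSB) and 1 with both factors against eNAMPT (FOSB), and moved the median of all genes to -0.14 in the comparisons of both factors with control and with eNAMPT and to -0.15 in that with PDGF-BB. With it, JUND was at -0.059 against control, -0.14 against PDGF-BB and -0.074 against eNAMPT in cells with both factors, JUN at -0.14 against PDGF-BB and FOSL2 at -0.032 against eNAMPT. The interaction was then -0.015 for FOSL1, -0.031 for FOSL2, -0.15 for JUN and -0.15 for JUND. None of these had passed before, and the cause was not tested. A threshold of 0.01 left 1 AP-1 gene, FOSB, with PDGF-BB, and no filter on low counts gave 1, JUNB, with eNAMPT. The eNAMPT change of JUN crossed 0, to 0.0011 with limma-voom, 0.010 with spike-in scaling, 0.00013 without the filter and 0.0010 in the other count table, where ATF3 was at -0.068. The interaction of JUND was -0.017 with limma-voom. Over settings other than a left-out library, 439 results kept direction and side of the threshold, 6 newly passed, 11 no longer passed and 15 changed sign, all of them below the threshold.

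Libraries with the same replicate number correlated in their deviations at 0.0159 to 0.277, above 0.1 in 25 of 30 pairs, and 26 of 30 were nearest to their own number. The median of these correlations was 0.161. As some pairs fell short and no label says what the numbers share, the main fit has no term for them. Any effect shared by libraries of the same number therefore stays in its spread, which limits the calls that missed the threshold. With the replicate block 1 AP-1 gene passed with eNAMPT (JUNB, 0.56, edgeR adjusted p = 0.00221) and 5 with both factors against eNAMPT, where JUNB (0.39, adjusted p = 0.0155) joined, as did FOS (1.56, adjusted p = 0.0351), which had entered the test through the groups with PDGF-BB. FOSL1 joined with PDGF-BB (0.35, adjusted p = 0.0187), making 4 there. With both factors against control 4 passed, against PDGF-BB 0, and in the interaction 0.

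Leaving out 1 library at a time gave 3 to 4 AP-1 genes with both factors against control, 1 to 3 with PDGF-BB, 0 to 1 with eNAMPT, 2 to 4 with both factors against eNAMPT, and 0 in every fit of both factors against PDGF-BB and of the interaction. Changes that crossed 0 had not passed. With eNAMPT they ran from -0.96 to 0.11 for FOS, -0.050 to 0.11 for FOSL1, -0.031 to 0.068 for JUN, -0.028 to 0.074 for JUND and -0.17 to 0.10 for ATF3. With PDGF-BB FOSL2 ran from -0.068 to 0.0067, and with both factors against eNAMPT JUND ran from -0.00077 to 0.13. With both factors against PDGF-BB the ranges were -0.21 to 0.0048 for FOS, -0.22 to 0.11 for FOSB, -0.011 to 0.051 for JUN and -0.046 to 0.088 for JUND. The interaction ran from -0.19 to 0.88 for FOS, -0.050 to 0.055 for JUN and -0.066 to 0.068 for JUND. Depth limits FOS most, at 1 to 23 counts per library.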
